A study of Rattus norvegicus with 24 samples.

Results

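The injury effect in the ipsilateral thalamus was compared with the injury effect in the perilesional cortex of the same animals, to find the genes whose response to traumatic brain injury (TBI) depended on the region. The comparison used 24 of the 24 messenger RNA libraries of the study, 1 from each region of 12 rats. The rats were adult male Sprague-Dawley animals of an outbred, genetically unmodified stock. The 6 TBI animals had received a lateral fluid-percussion injury, a pressure pulse onto the exposed dura, and the 6 sham-operated controls had the same anaesthesia and surgery without the pulse. Tissue was taken 3 months after the operation from 1 coronal slice per brain. The sequenced TBI animals were those that showed an inflammatory rim around the cortical lesion on magnetic resonance imaging, so they stand for that outcome of the injury and not for all injured rats. Each library is named here by its rat number in the labels.

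The cortical lesion of this model lies over the thalamus that projects to it. Thalamic relay neurons send their axons to the cortex and receive cortical input in return, so a cortical lesion cuts both their targets and part of their input, and a slow loss of thalamic neurons with local microglial and astrocytic reaction is a known sequel. In the cortex next to the lesion, neurons, glia, vessels, meninges and the ventricular lining all lie near the damaged tissue. In such bulk tissue, fewer cells of a type and less RNA per cell cannot be told apart.

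The deposited values, called normalized counts here, are the fragments of a locus scaled by the authors with 1 factor per library. The fragments could be recovered from them and came to between 30568927 and 54608922 per library. For each of the 15678 named loci that averaged 10 or more normalized counts over the 24 libraries, the difference of injury effects was estimated as (TBI thalamus minus sham thalamus) minus (TBI cortex minus sham cortex) on log2(normalized count + 1), with the rat as a block, by limma with Benjamini-Hochberg adjustment. A positive difference means that the thalamus effect lay above the cortex effect, and a negative one that it lay below. A locus is called region-dependent at an adjusted p under 0.05. Where a gene is later said to be lost in an alternative, it had no such call there, although its difference kept its sign. TBI and sham animals were also compared in each region alone by limma on the same loci, and "rose" and "fell" refer to calls of that test. Summed normalized counts of 19 genes of thalamic relay neurons were 125400 to 218430 in the thalamus libraries and 7933 to 9680 in the cortex libraries, so the region labels matched these markers. Libraries differed widely in choroid plexus transcripts, whose sum over the listed genes was 33406 in the cortex of sham rat 26 and 45315 in the cortex of TBI rat 45, against a cortex median of 6356. It was 100840 in the thalamus of sham rat 34, 147660 in that of sham rat 50 and 368930 in that of TBI rat 45, against a thalamus median of 13660. Main counts are therefore also given without these 4 rats, an alternative chosen after seeing the data that leaves 3 sham and 5 TBI animals. Fewer animals alone lower the number of calls. For a call lost there, this and the removal of the choroid-rich libraries cannot be told apart.

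Of the 15678 loci, 1301 were region-dependent, which is 8.3% of those tested. The thalamus effect lay above the cortex effect at 504 of them (3.21% of those tested) and below it at 797 (5.08%), so 38.7% of the calls were above. The edgeR quasi-likelihood test on the recovered fragments, an alternative chosen after seeing the data, called 1272 loci and split them 657 above and 615 below, or 51.7% above. The median absolute difference of the 1301 loci was 0.49 on the log2 scale, and 192 differed by at least 1, 55 above and 137 below. The within-rat differences of the 6 TBI and the 6 sham animals did not overlap at 699 of the 15678 loci (4.46%), and 620 of these were called. Without the 4 choroid-rich rats 346 loci were called, 154 above and 192 below. The median difference over all 15678 loci was -0.01, which is the level against which the gene lists are set. Counts of called list members are likewise set against the 8.3% of all loci called, 3.21% above and 5.08% below.

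The region tests on the same loci called 2268 loci higher (14.5%) and 2306 lower (14.7%) in the TBI cortex, and 2236 higher (14.3%) and 3248 lower (20.7%) in the TBI thalamus. The thalamic calls were 2266 higher and 3143 lower with TMM scaling, and 2340 and 3010 with median-of-ratios scaling. With upper quartile scaling they were 2623 higher and 2427 lower, and with edgeR 2807 and 2293. The excess of thalamic falls thus depended on the scaling and model, and the patterns below were counted in the main test. The commonest pattern among the region-dependent loci was a fall in the thalamus with no call in the cortex, at 444 loci with a median thalamic change of -0.44. A fall in both regions that was deeper in the thalamus accounted for 111, and a rise in the cortex with no call in the thalamus for 165, with a median cortical change of 1.08. On the side where the thalamus lay above, 182 loci rose in the thalamus with no call in the cortex, 154 rose in both and more in the thalamus, and 101 fell in the cortex with no call in the thalamus. The largest differences had their own pattern. Of 58 loci with a difference of -2 or lower, 46 rose in the cortex and had no call in the thalamus, while 5 loci had a difference of 2 or higher. Of 4702 loci with a call in 1 region alone, 892 (19%) were region-dependent, against 8.3% of all loci. Of 2612 loci with the same direction in both regions, 290 (11.1%) were. The region tests use the same libraries as the test of the difference.

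**Figure D1:**
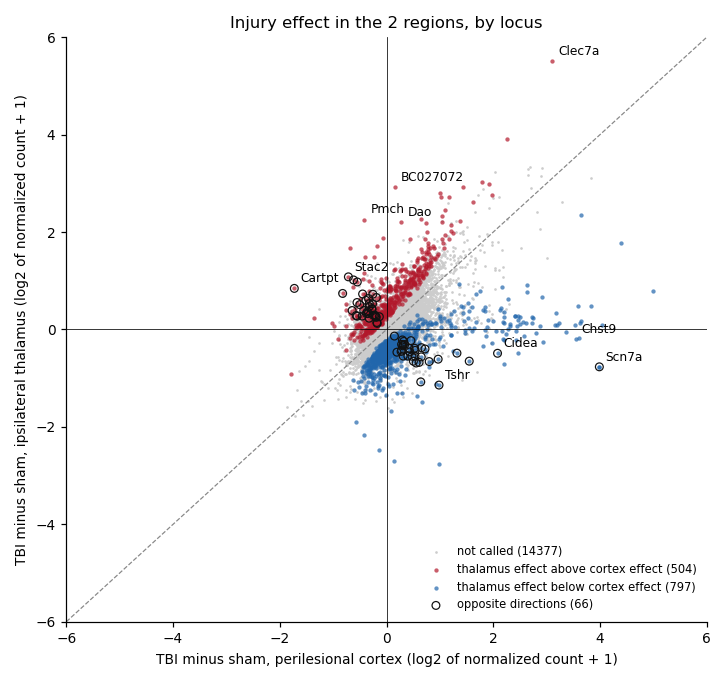
Injury effect in the perilesional cortex (x axis) and in the ipsilateral thalamus (y axis), both TBI minus sham on the log2(normalized count + 1) scale, 1 point per locus. Red points are the 504 loci whose thalamus effect lay above the cortex effect, blue points the 797 below, open circles the 66 loci with opposite directions, and the dashed line marks equal effects. The blue points far to the right near the horizontal axis are loci that rose in the cortex alone.

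The level of a gene in the uninjured regions went with the direction of its difference. In sham animals 53.4% of all loci tested had the higher mean in the thalamus. Among loci whose thalamus effect lay below the cortex effect this share was 76.8% (612 of 797), and among those whose thalamus effect lay above it was 33.3% (168 of 504). The sham libraries enter both the sham level and the difference, so these shares are a description and were not tested.

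**Figure D2:**
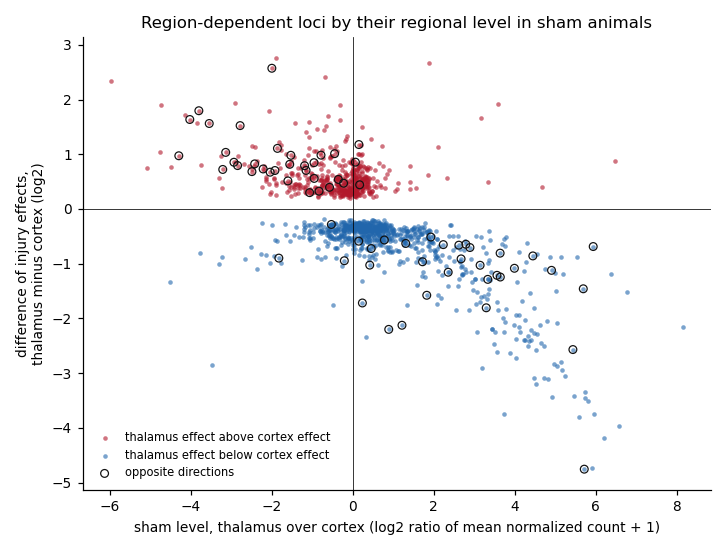
Difference of injury effects (y axis, log2, thalamus minus cortex) against the ratio of the sham thalamus to the sham cortex level (x axis, log2 of mean normalized count + 1) for the 1301 region-dependent loci, with the 66 opposite-direction loci circled. Most loci with a difference below 0 sit to the right, where the sham level was higher in the thalamus, and most of those above 0 sit to the left.

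Opposite directions, a rise past the threshold in 1 region and a fall past it in the other, were found at 66 loci (0.421% of those tested), and each of the 66 was also region-dependent. They split evenly, with 33 that rose in the cortex and fell in the thalamus and 33 the other way. Of the 33 that rose in the cortex, 30 had the higher sham level in the thalamus, and of the 33 that rose in the thalamus, 30 had the higher sham level in the cortex. At 11 of the 66 loci the TBI and sham animals did not overlap in either region: Cartpt, Stac2, Tnnc2, Rgs16, Rgs3, TRPM6, Vangl1, Rcsd1, Capn1, Gpr26 and Tmod1, chosen here by that count. The 66 had already passed both region tests on the same values, so this count is a description and adds no further test. Without the 4 choroid-rich rats 21 loci had opposite calls, and without sham rat 50 alone 42 had.

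Among the genes that rose in the cortex and fell in the thalamus, Scn7a stood first. It encodes an atypical, sodium-sensing member of the sodium channel family that is expressed in glia, and its locus is listed on chromosome 3 from 59009772 to 59496898. Its normalized count was 16.0 to 30.2 (median 21.5) in sham cortex and 137 to 727 (median 433) in TBI cortex, while it was 846 to 1883 (median 1063) in sham thalamus and 420 to 962 (median 757) in TBI thalamus. The cortical groups stood wholly apart and the thalamic groups overlapped. The difference was -4.75 ± 0.35 (SE, 6 TBI and 6 sham rats, limma adjusted p = 3.5e-06), the most negative of the named genes, from a rise of 3.99 in the cortex and a fall of 0.77 in the thalamus.

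Cidea, a lipid droplet protein, was 8.58 to 17.0 (median 11.5) in sham cortex and 37.2 to 70.2 (median 56.4) in TBI cortex. In the thalamus it was 470 to 665 (median 586) in sham and 306 to 504 (median 413) in TBI animals. The difference was -2.57 ± 0.22 (SE, limma adjusted p = 1.7e-05), and the groups overlapped only in the thalamus. The neuropeptide gene Nmb, which encodes neuromedin B, rose from a median of 18.4 (16.1 to 26.8) to 62.5 (47.9 to 72.1) in the cortex and fell from 36.2 (29.0 to 57.3) to 21.7 (18.8 to 35.6) in the thalamus, a difference of -2.20 ± 0.28 (SE, limma adjusted p = 0.000361). Tshr, the thyrotropin receptor, was low throughout, with medians of 14.8 and 27.1 in sham and TBI cortex and 36.9 and 17.2 in sham and TBI thalamus, and differed by -2.12 ± 0.42 (SE, limma adjusted p = 0.00664). Its groups overlapped in both regions.

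Tnc, Adamts2 and Adamts19 also rose in the cortex and fell in the thalamus. Tnc encodes tenascin-C, an extracellular glycoprotein of injured and developing tissue. It rose from a median of 316 (265 to 365) to 794 (533 to 1055) in the cortex and fell from 3164 (2404 to 3576) to 2124 (1954 to 2681) in the thalamus, a difference of -1.81 ± 0.17 (SE, limma adjusted p = 2.6e-05). Adamts2, a procollagen-processing protease, rose from a median of 355 to 565 in the cortex and fell from 444 to 199 in the thalamus, where the 6 TBI animals (160 to 314) lay below the 6 shams (368 to 514). Its difference was -1.72 ± 0.17 (SE, limma adjusted p = 5.64e-05). Adamts19, a protease of the same family, had medians of 19.3 and 27.9 in sham and TBI cortex and 55.5 and 37.5 in sham and TBI thalamus. The call of its difference of -1.58 was lost without the 4 choroid-rich rats (limma adjusted p = 0.0737).

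The genes that fell in the cortex and rose in the thalamus were led by Cartpt, the precursor of the CART neuropeptides, listed on chromosome 2 from 49285117 to 49287220. It was 136 to 216 (median 178) in sham cortex and 30.6 to 77.4 (median 55.9) in TBI cortex, against 32.9 to 54.4 (median 41.8) in sham thalamus and 70.0 to 82.3 (median 78.2) in TBI thalamus. The groups did not overlap in either region, and the order of the regions turned over, with the cortex higher in every sham rat and the TBI medians higher in the thalamus. The difference was 2.57 ± 0.24 (SE, limma adjusted p = 3.68e-05). Stac2, an adaptor of voltage-gated calcium channels listed on chromosome 10 from 85782658 to 85799746, moved in the same directions at higher levels. Unlike Cartpt, it stayed higher in the cortex in every TBI rat. It fell from a median of 5228 (4015 to 5472) to 2960 (2300 to 3720) in the cortex and rose from 366 (264 to 451) to 737 (694 to 794) in the thalamus, a difference of 1.80 ± 0.12 (SE, limma adjusted p = 2.03e-06).

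A further 6 genes fell in the cortex and rose in the thalamus. Cd200r1, an inhibitory receptor of myeloid cells, fell from a median of 303 (257 to 333) to 191 (106 to 312) in the cortex and rose from 18.5 (11.9 to 22.3) to 38.2 (22.5 to 46.7) in the thalamus, a difference of 1.63 ± 0.25 (SE, limma adjusted p = 0.00119). Mfi2, which encodes the iron-binding surface protein melanotransferrin, had medians of 283 and 188 in sham and TBI cortex and 41.8 and 78.1 in sham and TBI thalamus, with a difference of 1.52 ± 0.13 (SE, limma adjusted p = 1.7e-05). Tnnc2, a troponin C, fell from 897 to 582 in the cortex medians and rose from 76.0 to 127 in the thalamus, a difference of 1.56. Hcrtr2, an orexin receptor, fell from 55.8 to 42.1 and rose from 67.3 to 111, a difference of 1.18. Plekha2, a phosphoinositide-binding adaptor, fell from 2108 to 1306 and rose from 252 to 315, a difference of 1.03. Cadps2, which primes dense-core vesicles, fell from 6121 to 4226 and rose from 1760 to 2322. The call of its difference of 1.11 was lost without the 4 choroid-rich rats (limma adjusted p = 0.127).

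**Figure D3:**
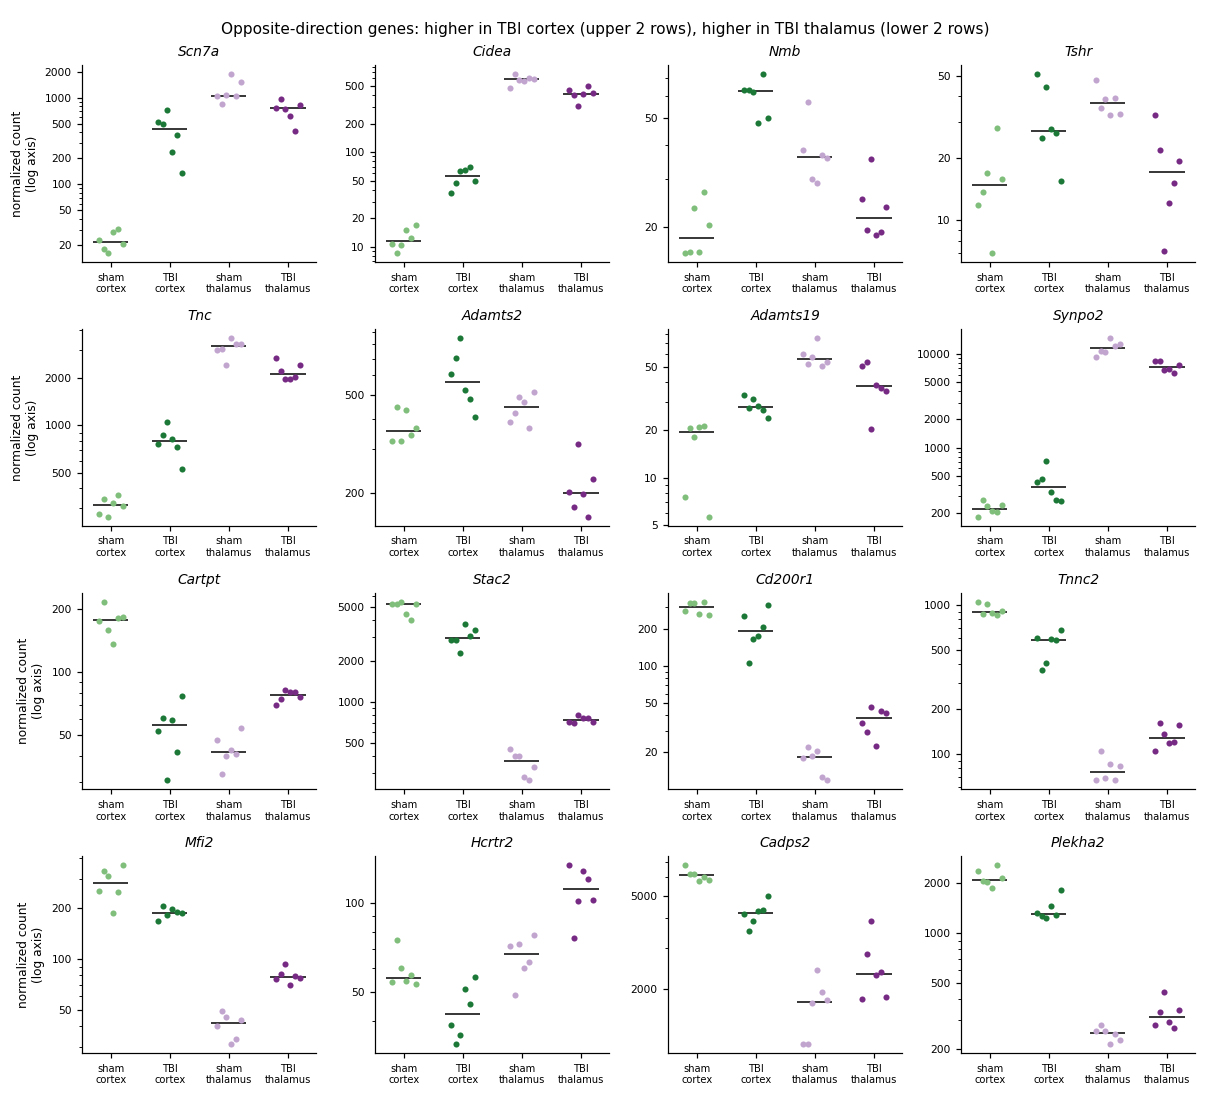
Normalized counts (log axis) of the 8 opposite-direction genes with the largest difference in each direction, 1 point per library and 6 rats per group, with lines at the medians. In the upper rows the TBI cortex lies above the sham cortex and the TBI thalamus below the sham thalamus, and in the lower rows the order is the reverse.

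Genes of thalamic relay neurons fell in the thalamus and partly rose in the cortex. Of 19 genes listed for these neurons, 7 had a thalamus effect below the cortex effect (Synpo2, Rgs16, Prkcd, Plekhg1, Zic1, Tcf7l2 and Lef1) and 1 above (Slc17a6), against 5.08% and 3.21% of all loci. In the region tests 13 fell and none rose in the thalamus (median change -0.40), while 6 rose and 4 fell in the cortex (median 0.02). The median difference was -0.28 beside -0.01 over all loci. The count of 7 was the same when any 1 rat was left out, and was 5 without the 4 choroid-rich rats.

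Synpo2, an actin-binding protein, was 9269 to 14853 (median 11509) in sham thalamus and 6298 to 8422 (median 7244) in TBI thalamus, but 182 to 276 (median 223) in sham cortex and 265 to 711 (median 382) in TBI cortex. The difference was -1.46 ± 0.21 (SE, limma adjusted p = 0.000876). Rgs16, a brake on G-protein signalling, fell from 9332 (8180 to 11484) to 6481 (5530 to 7222) in the thalamus and rose from 619 (485 to 663) to 840 (692 to 1144) in the cortex, with no overlap of the groups in either region, a difference of -1.08 ± 0.13 (SE, limma adjusted p = 0.000176). Prkcd, protein kinase C delta, a marker of relay neurons, fell from 36846 (30458 to 46532) to 21481 (18547 to 26164) in the thalamus, and its cortical medians were 1148 in sham and 1056 in TBI animals. Its difference was -0.87 ± 0.13 (SE, limma adjusted p = 0.000973). Slc17a6, the vesicular glutamate transporter that relay neurons use, went against the list: it fell in both regions, by 0.60 in the cortex and by 0.21 in the thalamus, and so had a positive difference of 0.39. The summed relay genes were 7933 to 9680 in TBI cortex and 8241 to 8803 in sham cortex, so the cortical sums overlapped, while in the thalamus the TBI animals, at 125400 to 149680, lay below the shams, at 159460 to 218430.

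Other lists of neuron genes were read against the 8.3% of all loci that were region-dependent. Among 13 forebrain excitatory neuron genes only Slc17a7 was called. This vesicular glutamate transporter of cortical neurons fell in the thalamus from a median of 7950 (4464 to 9880) to 3648 (2693 to 4970), with cortical medians of 49635 and 45768, a difference of -0.92 ± 0.19 (SE, limma adjusted p = 0.00903). Of 13 upper-layer genes 3 were called (23.1%), with Cartpt and Pou3f2 above and Cux2 below. Pou3f2, a transcription factor with a difference of 0.46, was lost without any 1 of 8 of the 12 rats (limma adjusted p up to 0.115) and without the block, and Cux2, with -0.37, was lost without the choroid-rich rats. Of 15 deep-layer genes Trh alone was called. Trh encodes thyrotropin-releasing hormone and was in fact almost absent from these cortex samples: its median was 9.94 in sham and 15.6 in TBI cortex, against 3186 (2330 to 4080) in sham and 1261 (287 to 1873) in TBI thalamus. The call of the difference of -2.16 ± 0.61 (SE, limma adjusted p = 0.0401) was lost without any 1 of 9 rats, with limma adjusted p up to 0.0816. Of 15 pan-neuronal genes, 9 fell in the cortex and 12 in the thalamus, but only Chga, the granule protein chromogranin A, was region-dependent (difference -0.54, limma adjusted p = 0.00411). Its call was lost without the choroid-rich rats.

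Genes of motile cilia and the ependyma, the ciliated lining of the ventricles, mostly rose in the cortex, and none passed the test in the thalamus. Of 10 listed genes, 7 had a thalamus effect below the cortex effect and none above, against 5.08% and 3.21% of all loci. In the region tests 8 rose in the cortex (median change 1.36) and none was called in the thalamus by limma or edgeR (median 0.12, and 0 at an unadjusted p under 0.05), with a median difference of -1.05. The number called was 4 without the block, 5 to 9 when 1 rat was left out and 2 without the 4 choroid-rich rats. In the sham cortex Stoml3, Tmem212, Spag17 and Ak7, described next, were near 0, so the size of their log2 differences depends on the added pseudocount of 1. With a pseudocount of 0.1 and of 5 the difference of Stoml3 was -7.04 and -3.05, that of Tmem212 -5.82 and -2.47, that of Spag17 -4.78 and -2.21 and that of Ak7 -3.84 and -2.65, and each was called under both.

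Stoml3, a stomatin-like protein of ciliated sensory cells listed on chromosome 2 from 162400574 to 162418691, was among the most negative of all region-dependent genes. It was 0 to 1.72 (median 0) in sham cortex and 1.19 to 46.6 (median 32.1) in TBI cortex, against 50.8 to 146 (median 76.5) in sham thalamus and 20.7 to 121 (median 39.9) in TBI thalamus. Its difference was -4.74 ± 0.62 (SE, limma adjusted p = 0.000469). Of the listed genes, Tmem212 was 0 to 3.35 (median 0.472) in sham and 2.38 to 60.3 (median 48.5) in TBI cortex, with thalamic medians of 193 in sham and 163 in TBI animals, and differed by -3.96 ± 0.66 (SE, limma adjusted p = 0.00239). Spag17, a protein of the central pair of the axoneme, was 0 to 4.47 in sham and 3.57 to 54.4 in TBI cortex and differed by -3.44 ± 0.60 (SE, limma adjusted p = 0.00292). Ak7, an adenylate kinase of cilia, was 0.944 to 10.8 in sham and 2.38 to 127 in TBI cortex and differed by -3.45, a call lost without the choroid-rich rats (limma adjusted p = 0.0955). Hydin, also of the central pair, had medians of 93.1 and 231 in sham and TBI cortex and 531 and 615 in sham and TBI thalamus.

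The low end of each range in the TBI cortex was mostly 1 animal. The summed ependymal genes of TBI rat 63 reached 440 in the cortex, within the sham range of 338 to 544, while the other TBI animals extended to 1833. Without rat 63 the number of region-dependent members was 9 of 10, and 10 rose in the cortex. This rat was singled out by the same values, so these counts are a description, and 9 is the top of the range of 5 to 9. The sums in the thalamus were 2097 to 4099 in TBI and 1742 to 4075 in sham animals and overlapped. Of 14 choroid plexus genes, which mark another tissue of the ventricles, none was called in the region-dependent test or in either region by limma or edgeR. At an unadjusted p under 0.05 there were 0, with 1 in the cortex and 0 in the thalamus. With 1 rat left out, and in the other alternatives, up to 1 choroid plexus gene was region-dependent. The TBI cortex library with the highest ependymal sum, from rat 45, was also the richest in choroid plexus transcripts of the TBI cortex libraries. The 4 TBI rats other than 45 and 63 had cortical ependymal sums of 806 to 1413, above every sham animal, with choroid plexus sums of 5448 to 6128, below the cortex median. These 4 were picked after the values were seen. Choroid plexus sums do not measure the ventricular lining in a sample, and its part in the cortical rise was not tested.

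Chst9, Spata18 and Gm17455 also rose in the cortex and had no call in the thalamus. Chst9, a carbohydrate sulfotransferase, was 4.29 to 11.8 (median 6.80) in sham and 65.5 to 142 (median 90.2) in TBI cortex, with thalamic medians of 546 and 486, a difference of -3.74 ± 0.26 (SE, limma adjusted p = 2.75e-06). Spata18, a mitochondrial quality protein, was 1.16 to 8.49 (median 4.30) in sham cortex and 10.7 to 122 (median 80.5) in TBI cortex and differed by -3.79 ± 0.41 (SE, limma adjusted p = 0.000123). Gm17455 was 0 to 3.43 in sham and 4.76 to 39.1 in TBI cortex and differed by -3.19, a call lost without the choroid-rich rats (limma adjusted p = 0.0548). In contrast RGD1564899, with a difference of -3.75, fell in the thalamus, where it was 24.4 to 59.2 (median 38.2) in sham and 0 to 11.7 (median 7.03) in TBI animals, with cortical medians of 2.04 and 4.53. It lost its call without the choroid-rich rats too (limma adjusted p = 0.0586). Both of these genes were at or near 0 in some libraries. With a pseudocount of 0.1 and of 5 the difference was -4.08 and -2.11 for Gm17455 and -5.47 and -2.44 for RGD1564899, called under both.

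**Figure D4:**
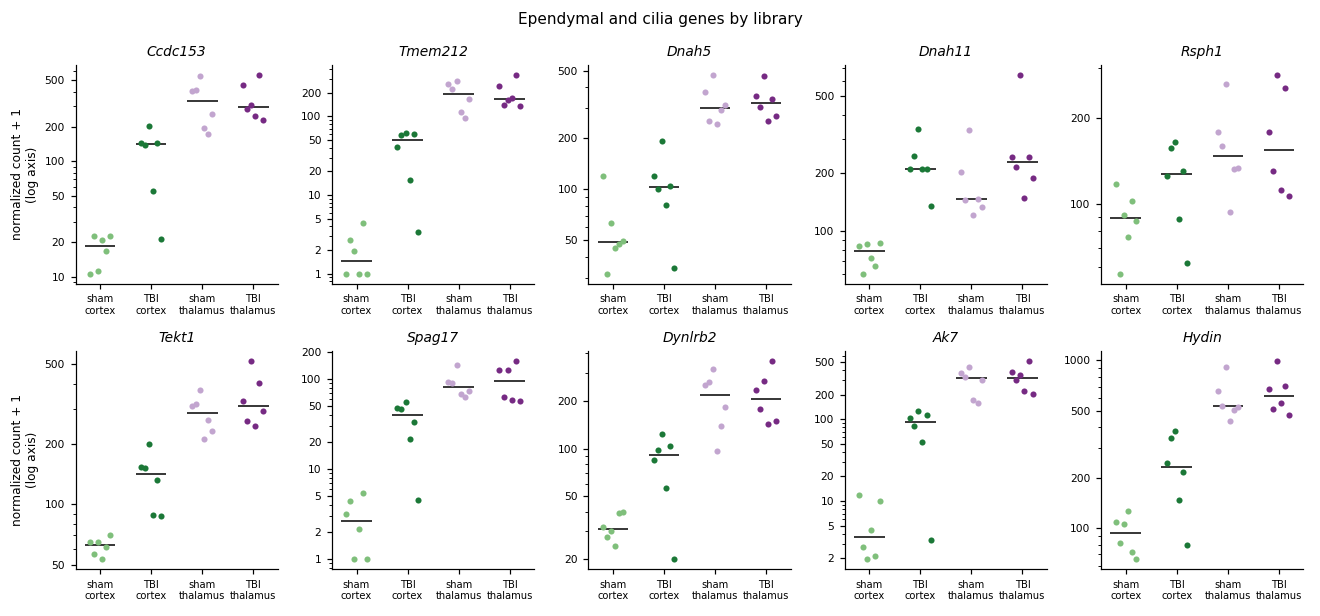
Normalized count + 1 (log axis) of the 10 ependymal and cilia genes, 1 point per library and 6 rats per group, with lines at the medians. The TBI cortex lies between the low sham cortex and the high thalamus for most genes, with 1 TBI cortex library, from rat 63, near the sham level.

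Promoters of the ciliary genes are shown because these members moved together in the cortex. RFX transcription factors, which drive ciliary genes, bind the X-box, whose half-site GTTGCC was searched on both strands from 250 bases before to 50 after each start in the RefSeq promoters of GRCr8. Of the 10 genes 8 had a promoter in the set, with 14 promoters in all, as a gene can have several. The motif was in 4 of these 14, of 3 genes, against 12.2% of 33469 promoters of all genes. Dnah11 alone held 6 of the 14, with matches in different ones, so the promoters do not count as separate genes. The windows of 60 bases around each match, written 5′ to 3′ on the strand of the gene with the motif or its reverse complement in capitals, follow. A match is a description and no evidence of binding.
Tekt1, chr10:57479128-57479187, minus strand: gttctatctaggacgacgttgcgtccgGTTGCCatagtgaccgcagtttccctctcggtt
Hydin, chr19:55146433-55146492, plus strand: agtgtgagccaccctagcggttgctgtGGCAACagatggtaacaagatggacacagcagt
Dnah11, chr6:145298475-145298534, minus strand: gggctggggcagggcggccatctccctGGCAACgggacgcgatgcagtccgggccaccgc
Dnah11, another promoter, chr6:145213737-145213796, minus strand: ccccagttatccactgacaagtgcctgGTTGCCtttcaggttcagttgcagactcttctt

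Most of the microglial genes listed rose in both regions, and those that were region-dependent had the larger rise in the thalamus. Of 16 homeostatic microglia genes 11 had a thalamus effect above the cortex effect and none below, against 3.21% of all loci above. In the region tests 12 rose in the cortex (median 0.49) and 14 in the thalamus (median 0.90), and none fell. Among the 11 were P2ry12, Itgam, Gpr34, Mertk, Slc2a5, Cd33, P2ry13, Aif1, Cx3cr1 and Csf1r, and the count was 11 when any 1 rat was left out and 5 without the 4 choroid-rich rats. The summed level of the list was 18679 to 20530 in sham cortex and 18929 to 23074 in sham thalamus, and it was 24443 to 26381 in TBI cortex and 36025 to 45084 in TBI thalamus.

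P2ry12, the purine receptor by which resting microglia sense injury, was 578 to 793 (median 718) in sham and 689 to 1051 (median 937) in TBI cortex, and 692 to 916 (median 739) in sham and 1319 to 2099 (median 1699) in TBI thalamus. The difference was 0.75 ± 0.11 (SE, limma adjusted p = 0.0011). Itgam, the CD11b integrin chain, had medians of 822 and 935 in sham and TBI cortex, which overlapped, and of 997 and 1695 in the thalamus, where the 6 TBI animals lay above the 6 shams. Its difference was 0.75 ± 0.13 (SE, limma adjusted p = 0.00241). Gpr34, a lysophospholipid receptor, differed by 0.72, a call lost without the choroid-rich rats (limma adjusted p = 0.076).

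Among 22 disease-associated microglia genes 20 rose in the cortex and 21 in the thalamus. Of these 22 genes 5 were region-dependent, all above (22.7%, against 3.21% of all loci). Clec7a, the fungal pattern receptor dectin-1 and a marker of activated microglia listed on chromosome 4 from 211859642 to 211877596, had the largest difference. It was 6.70 to 20.6 (median 17.2) in sham and 94.0 to 187 (median 149) in TBI cortex, and 6.92 to 12.5 (median 10.6) in sham and 308 to 783 (median 482) in TBI thalamus. The group means rose 8.82-fold in the cortex and 51.3-fold in the thalamus, a difference of 2.41 ± 0.36 (SE, limma adjusted p = 0.00113). Axl, a receptor for dying cells, differed by 0.58 ± 0.08 (SE, limma adjusted p = 0.000879), from medians of 2099 and 2551 in the cortex, with thalamic medians of 1578 and 2934. Cd68, a lysosomal glycoprotein of phagocytes, had medians of 77.4 and 293 in the cortex, with thalamic medians of 93.6 and 635. The call of its difference of 0.79 (limma adjusted p = 0.0273) was lost without sham rat 50 or sham rat 55 (limma adjusted p up to 0.0656) and with limma-voom.

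Of 28 lysosomal genes 10 had a thalamus effect above the cortex effect and none below, against 3.21% and 5.08% of all loci. Each of the 10 rose in both regions (among them Cd68, Npc2, Ctss, Laptm5, Ctsl1, Ctsz, Ctsd, Lgmn and Ctsh). The count was 7 to 12 when 1 rat was left out and 2 without the 4 choroid-rich rats. Npc2, a lysosomal cholesterol carrier, went from 3543 to 6912 in the cortex and from 5098 to 14264 in the thalamus. The call of its difference of 0.57 was lost without the choroid-rich rats (limma adjusted p = 0.0541). Cd68 stands in the list of disease-associated genes as well.

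Of 20 Fc receptor and ITAM signalling genes 18 rose in the cortex and 20 in the thalamus. Of these 20 genes 5 were region-dependent, all above (25%, against 3.21% of all loci). Inpp5d, a phosphatase that restrains Fc receptor signals, was 1823 to 2157 (median 2063) in sham and 1761 to 2030 (median 1846) in TBI cortex, and 480 to 702 (median 589) in sham and 978 to 1343 (median 1159) in TBI thalamus, a difference of 1.08 ± 0.12 (SE, limma adjusted p = 0.000149). The inhibitory receptor Fcgr2b differed by 0.89 ± 0.14 and the kinase Syk by 0.72 ± 0.11 (SE), both with rises in either region. Of 19 complement genes 13 rose in each region and 5 lay above (26.3%, against 3.21% of all loci), 3 without the block. Serping1, the C1 inhibitor, rose 3.88-fold in the cortex and 7.75-fold in the thalamus by group means, from medians of 689 to 2655 and of 342 to 2838, a difference of 1.06 ± 0.21 (SE, limma adjusted p = 0.00726). Itgb2, a chain of complement receptors, differed by 0.77 ± 0.13 (SE, limma adjusted p = 0.00192), and C3ar1, an anaphylatoxin receptor, by 0.60, a call lost without any 1 of 4 rats (limma adjusted p up to 0.0664) and without the block.

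Of 18 Toll-like receptor and inflammasome genes 14 rose in the cortex and 17 in the thalamus, and 4 lay above (22.2%, against 3.21% of all loci). They were Ly96, the partner of Toll-like receptor 4 (difference 0.95 ± 0.19, SE), Casp1 (0.60, lost without the choroid-rich rats), Tlr7 (0.57 ± 0.12, SE) and Nlrp3 (0.53). Of 26 chemokine and cytokine genes 4 lay above and 1 below. Cxcl14 was one with opposite directions. This chemokine, which neurons also make, fell from 3486 to 2912 in the cortical medians and rose from 1504 (1380 to 1794) to 2236 (2040 to 2335) in the thalamus, a difference of 0.79 ± 0.09 (SE, limma adjusted p = 0.000123). Cxcl16 rose in both regions, from 292 to 586 and from 141 to 551, with a difference of 0.83 ± 0.16 (SE, limma adjusted p = 0.00642). Tgfb1, the growth factor TGF-beta 1, rose in both with a difference of 0.67 ± 0.15 (SE, limma adjusted p = 0.0121).

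Of 8 class II genes of antigen presentation 6 rose in the cortex and 8 in the thalamus with a median difference of 0.83, but only Ctss, a protease that trims the invariant chain (0.53), and RT1-DOb (1.44) were called, and both were lost without the choroid-rich rats. RT1-DOb was lost without the block as well. Of 16 class I and peptide processing genes only B2m was called (0.35, lost without any 1 of 7 rats), and of 26 interferon-stimulated genes, 22 of which rose in the cortex and 21 in the thalamus, Irf8 lay above (0.59 ± 0.14, SE, limma adjusted p = 0.0183) and Gbp2 below (-0.44, lost without any 1 of 9 rats and in 8 of the 14 other alternatives). Cd4, which rat microglia and macrophages carry as well as T cells, rose from 794 to 1338 in the cortical medians and from 828 (698 to 1063) to 2817 (2511 to 4153) in the thalamus, a difference of 1.00 ± 0.12 (SE, limma adjusted p = 0.000325), and was the only one of 6 lymphocyte genes called. Csf3r, a granulocyte factor receptor (0.56, lost without any 1 of 9 rats), was the only one of 4 granulocyte genes. Among 9 perivascular macrophage genes, F13a1, a clotting factor chain of macrophages, lay below (-0.70), with a rise in the cortex from 130 to 210 and thalamic medians of 799 and 725. It was lost without the block (limma adjusted p = 0.0679).

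Dao and BC027072 were among the genes with the largest positive differences. Dao, the peroxisomal D-amino acid oxidase, was low in the cortex (medians 4.97 and 6.72), and was 60.2 to 91.6 (median 76.3) in sham and 276 to 413 (median 326) in TBI thalamus, a difference of 1.92 ± 0.30 (SE, limma adjusted p = 0.00139). BC027072 had the largest positive difference of the named genes, 2.76 ± 0.37 (SE, limma adjusted p = 0.000582), from cortical medians of 46.8 and 51.4 and from 1.91 to 18.0 (median 11.6) in sham and 51.6 to 94.1 (median 76.7) in TBI thalamus.

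Astrocyte genes were divided. Of 21 reactive astrocyte genes 15 rose in each region, and the median difference was 0.38. In this list 6 lay above and 1 below (33.3% called, against 8.3% of all loci). Gfap, the filament that defines reactive astrocytes, rose by 2.26 in both regions, with a difference of 0.00. Timp1, an inhibitor of matrix proteases, was 132 to 197 (median 143) in sham and 259 to 575 (median 302) in TBI cortex, and 38.9 to 74.5 (median 51.8) in sham and 248 to 645 (median 350) in TBI thalamus, a difference of 1.56 ± 0.21 (SE, limma adjusted p = 0.000582). Nes, the filament protein nestin, rose only in the thalamus, from 31.8 to 87.3, and differed by 1.06, a call lost without the choroid-rich rats (limma adjusted p = 0.127), and Aspg (1.23) was lost without any 1 of 7 rats (limma adjusted p up to 0.0808). Cd109 was the 1 member below, with a rise of 1.00 in the cortex. Of 18 other astrocyte genes Aqp4, the astrocytic water channel (0.39), S100b (0.37) and the glutamine synthetase gene Glul (0.32) lay above. None of the 3 held in every alternative: Aqp4 was lost without any 1 of 10 rats, Glul without any 1 of 9 and S100b without sham rat 55 or TBI rat 56.

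Many ion channel genes fell in both regions, and some of them fell more in the thalamus. Of 36 voltage-gated potassium channel genes 24 fell in each region, and 8 had a thalamus effect below the cortex effect with 2 above, against 5.08% and 3.21% of all loci. The accessory subunits Kcnab2 and Kcnab3 differed by -0.71 ± 0.08 and -0.64 ± 0.13 (SE), with falls in both regions. Of 24 other potassium channel genes 8 lay below and 1 above, and 1 below without the choroid-rich rats. Kcnj16 is an inward rectifier of astrocytes and other cells. It was 226 to 381 (median 249) in sham and 522 to 859 (median 578) in TBI cortex, with thalamic medians of 4446 and 4078, a difference of -1.33 ± 0.15 (SE, limma adjusted p = 0.000149). Kcnn3 (-0.59) was lost without the choroid-rich rats and Kcnj4 (-0.88) without any 1 of 7 rats.

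Of 15 sodium channel genes 4 lay below and none above. Besides Scn7a, they included the beta subunit Scn4b and the alpha subunit Scn8a (-0.50), both with falls in both regions. Scn4b fell from 7038 (5635 to 8810) to 5631 (3277 to 6488) in the cortex and from 5187 (3999 to 6563) to 1191 (525 to 1861) in the thalamus, a difference of -1.75 ± 0.30 (SE, limma adjusted p = 0.00278). Of 23 calcium channel and HCN genes 7 lay below and none above, and 1 did without the choroid-rich rats. Cacna1c, an L-type channel (-0.54), was lost without those rats, and Hcn4, the pacemaker channel of relay neurons (-0.61), and Cacng5 (-0.60) without any 1 of 8 and 6 rats. Hcn4 was also lost without the block (limma adjusted p = 0.0885).

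Of 22 glutamate receptor genes 6 lay below and none above, against 5.08% and 3.21% of all loci. Grin2c (-0.47), an NMDA receptor subunit, rose in the cortex from 2297 to 2730 with no call in the thalamus and was lost without the choroid-rich rats, and Grin2b (-0.55) was lost without any 1 of 8 rats and without the block. Of 21 GABA and glycine receptor genes 3 lay below and 1 above. Gabrd, the subunit of tonic GABA currents in thalamic relay cells, fell from 3695 to 3040 in the cortical medians and from 7418 (6092 to 8238) to 3801 (2664 to 4206) in the thalamus, a difference of -0.77 ± 0.11 (SE, limma adjusted p = 0.000767). Glra1, a glycine receptor subunit (-0.89), was lost without the block, and Gabra5 (0.65), at a locus joined to an unnamed gene, without any 1 of 5 rats.

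Of 31 monoamine and acetylcholine receptor genes 6 lay below and 1 above. Drd1, the D1 dopamine receptor, was 300 to 368 (median 344) in sham and 227 to 876 (median 305) in TBI cortex, and 644 to 1141 (median 807) in sham and 158 to 463 (median 280) in TBI thalamus, a difference of -1.75 ± 0.28 (SE, limma adjusted p = 0.00184). Drd1 is also a marker of striatal neurons, and the summed level of 9 other striatal genes in the thalamus was 7730 to 15876 in sham and 7439 to 9452 in TBI animals, which overlapped. It was 15718 to 17972 in sham and 14582 to 25819 in TBI cortex. With Drd1 included, the cortical sum of TBI rat 24 was 26695 and those of the other TBI rats were 14809 to 17532. Of the 10 genes, Drd1 included, 6 fell in the thalamus (median change -0.73). The median difference of the 10 was -0.96 and 0 of them had a difference above 0. Drd1 alone was called (10%, near the 8.3% of all loci), and 7 had an unadjusted p under 0.05. The part of striatal tissue in the Drd1 result was not tested. Chrm4 (-1.01), another receptor of striatal neurons, and the adrenergic receptor Adra1d (-0.99) were lost without the choroid-rich rats.

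Of 37 synaptic vesicle and SNARE genes 22 fell in the cortex and 26 in the thalamus. In this list 7 lay below and none above (18.9% called, against 8.3% of all loci). Syt2, the fast calcium sensor of synaptotagmins, fell from 7116 (6730 to 9025) to 5422 (3339 to 6514) in the cortex and from 8736 (7241 to 9862) to 2374 (1371 to 3378) in the thalamus, with no overlap in either region, a difference of -1.32 ± 0.24 (SE, limma adjusted p = 0.0039). Unc13c, a vesicle primer (-0.67 ± 0.12, SE), and Cplx1, which clamps release (-0.60 ± 0.10, SE), followed. Of 26 neurofilament and axonal cytoskeleton genes 16 fell in the cortex and 18 in the thalamus and 5 lay below and 1 above, but none was called without the choroid-rich rats. Dpysl3 (-0.51), which rose in the cortex and fell in the thalamus, Sptbn4 (-0.52), a spectrin of axon initial segments, and Stmn1 (0.37), a tubulin-binding protein, are its named members, and the last pair were lost without any 1 of 3 and 9 rats. Acan, the core protein of perineuronal nets, which wrap fast-spiking neurons, fell from 352 to 307 in the cortical medians and from 481 (414 to 515) to 214 (176 to 271) in the thalamus, a difference of -0.87 ± 0.12 (SE, limma adjusted p = 0.000591).

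**Figure D5:**
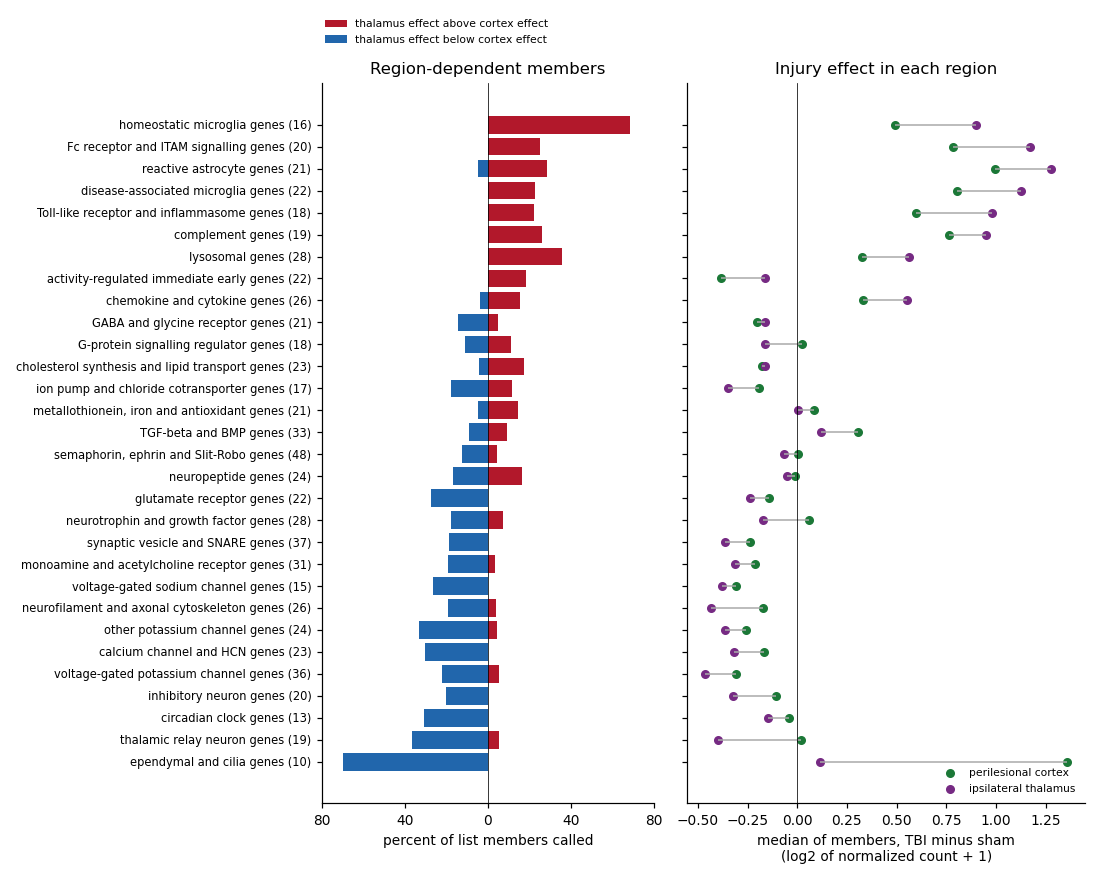
Gene lists with at least 4 region-dependent members. The left panel gives the per cent of tested members (number in brackets) with a thalamus effect above (red) or below (blue) the cortex effect, and the right panel the median injury effect of the members in each region (log2). The homeostatic microglia list lies at the top, with a thalamic median (0.90) above the cortical one (0.49), and the ependymal and cilia list at the bottom with the reverse order (0.12 and 1.36).

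Of 24 neuropeptide genes 4 lay above and 4 below (33.3% called, against 8.3% of all loci). Vip, the vasoactive intestinal peptide, which marks a class of cortical interneurons, was 1966 to 2633 (median 2371) in sham and 1750 to 2393 (median 2112) in TBI cortex, but 2561 to 3111 (median 3006) in sham and 317 to 672 (median 595) in TBI thalamus, 0.186 of the sham mean. The difference was -2.33 ± 0.18 (SE, limma adjusted p = 5.19e-06). Adcyap1, which encodes the peptide PACAP, fell in the cortex with no call in the thalamus, a difference of 0.87. Pmch, the melanin-concentrating hormone precursor of hypothalamic neurons, was 27.5 to 127 (median 53.9) in sham and 83.3 to 665 (median 304) in TBI thalamus, which overlapped, and 13.2 to 22.1 in sham and 5.95 to 31.5 in TBI cortex, a difference of 2.68 ± 0.52 (SE, limma adjusted p = 0.00631). The summed level of the other 6 hypothalamic genes in the thalamus libraries was 96.5 to 383 in sham and 209 to 775 in TBI animals, which overlapped, and the part of neighbouring hypothalamic tissue in the Pmch result was not tested. Of 20 inhibitory neuron genes 4 lay below and none above: Vip, Cck (-0.93, lost without the choroid-rich rats), the fast-spiking marker Pvalb (-0.67) and Dlx2 (-0.93, lost without any 1 of 8 rats).

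Of 22 immediate early genes 7 fell in the cortex and 5 in the thalamus, and 4 lay above. Fosl2, a member of the AP-1 family, fell from 2302 to 1751 in the cortex and rose from 305 to 449 in the thalamus, a difference of 0.79 ± 0.14 (SE, limma adjusted p = 0.00339). Fos (0.59) rested on the pairing of the regions: neither region passed its own test, and the call was lost without the block (limma adjusted p = 0.512). Egr2 (2.35) was lost without any 1 of 7 rats, and Bdnf, the activity-dependent neurotrophin, fell only in the cortex (0.56). Of 13 circadian clock genes 4 lay below, Nr1d1 (-0.48), Dbp (-0.38), Hlf (-0.38) and Tef, and none was called without the choroid-rich rats. Dbp was lost without the block too.

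Growth factor, matrix and guidance genes moved in both directions. Of 28 neurotrophin and growth factor genes 5 lay below and 2 above. Igfbp5, a carrier of insulin-like growth factors, rose from 2367 (1910 to 2713) to 4534 (3732 to 6451) in the cortex, with thalamic medians of 17804 and 16581, a difference of -1.15 ± 0.17 (SE, limma adjusted p = 0.000879). Fgf1 rose in the cortex and fell in the thalamus (-0.81, lost without the choroid-rich rats), and Hgf (-0.86) was lost without any 1 of 8 rats. Of 25 collagen and basement membrane genes 19 rose in the cortex and 6 in the thalamus, and 2 were region-dependent (8%, near the 8.3% of all loci). They were Lamb1, a laminin chain that fell in the thalamus from 1942 to 1225 (-0.65 ± 0.11, SE, limma adjusted p = 0.00266), and Col18a1 (-0.56, lost without any 1 of 7 rats). The thalamic sum of the list was 56672 in TBI rat 45 and 18239 to 21353 in the other TBI rats, which widens the thalamic spread. With 1 rat left out 1 to 3 members lay below. Of 48 semaphorin, ephrin and Slit-Robo genes 6 lay below and 2 above, against 5.08% and 3.21% of all loci, so the 2 above were near the latter share. Sema3c, a secreted guidance cue, fell in the cortex from 1387 to 964 (0.73 ± 0.13, SE), and Sema7a, a membrane-anchored semaphorin, fell in both regions and more in the thalamus, from 13035 to 7168 (-0.61 ± 0.13, SE). The receptor Epha8 (-1.04) fell in the thalamus alone, and without the choroid-rich rats it was lost. Sema6a (-0.52), the 1 called member of 18 axon injury genes, fell in the thalamus.

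Of 33 TGF-beta and BMP genes 15 rose in the cortex and 10 in the thalamus, with 3 above and 3 below (18.2% called, against 8.3% of all loci). Bmp6 (-0.74, lost without any 1 of 7 rats) and Tgfbi (-0.69, lost without the choroid-rich rats) rose in the cortex alone. Of 18 regulators of G-protein signalling 2 lay above and 2 below. Rgs10, a microglial member, rose in the thalamus from 999 to 1676 with cortical medians of 1909 and 2039, a difference of 0.80 ± 0.12 (SE, limma adjusted p = 0.00139). Rgs3, at a locus that joins 2 spellings of its name, rose from 1638 to 1991 in the cortex and fell from 12558 to 9240 in the thalamus without overlap in either region, a difference of -0.70 ± 0.08 (SE, limma adjusted p = 0.000176).

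Of 17 ion pump and chloride cotransporter genes 2 lay above and 3 below (29.4% called, against 8.3% of all loci). The calcium pump Atp2b1 (-0.42) lay below and was lost without any 1 of 7 rats. Of 21 metallothionein, iron and antioxidant genes 3 lay above and 1 below. Mt2A, a zinc-binding metallothionein, rose from 441 to 1102 in the cortex and from 167 (129 to 213) to 732 (671 to 866) in the thalamus, a difference of 0.95 ± 0.15 (SE, limma adjusted p = 0.00184). Fth1, the ferritin heavy chain, differed by 0.42 ± 0.07 (SE, limma adjusted p = 0.00273), and Tfrc, the transferrin receptor, fell only in the cortex (0.54). Tfrc was lost without sham rat 50, without the choroid-rich rats and with no mean trend (limma adjusted p up to 0.287). Of 23 cholesterol genes 4 lay above and 1 below, with 1 called in all without the block. Idi1 (0.51), Insig1 (0.38) and Hmgcs1 (0.24) each fell in the cortex, Cyp46a1 (-0.49), which removes neuronal cholesterol, fell in the thalamus, and none of the list was called without the choroid-rich rats. Of 21 p53 and apoptosis genes Bid lay above (0.70 ± 0.10, SE, limma adjusted p = 0.000879) and Cdkn1a below (-0.79, lost without the choroid-rich rats). This is 9.52% of the list, near the 8.3% of all loci.

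Several lists held no region-dependent gene, which is no evidence of equal effects. Neither limma nor edgeR called any of 19 oligodendrocyte and myelin genes (3 at an unadjusted p under 0.05), 15 oligodendrocyte precursor genes (5), 12 pericyte and smooth muscle genes (2), 10 habenular genes (2), 3 erythroid genes (0) or 26 glycolysis and citric acid cycle genes (10). With 1 rat left out, limma called up to 1 gene in the precursor, pericyte, habenular and glycolysis lists. Other alternatives also called up to 1 in the precursor and glycolysis lists. Of 15 fibroblast and meningeal genes 12 rose in the cortex and 1 in the thalamus, but limma and edgeR called none region-dependent (2 at an unadjusted p under 0.05), with a median difference of -0.32. In this list limma called up to 1 gene with 1 rat left out. The thalamic sum of the list was 61757 in TBI rat 45 and 5060.5 to 6169.4 in the other TBI rats. Of 36 respiratory chain genes 23 fell in the cortex and 30 in the thalamus, and Ndufv1 alone was called (-0.29, lost without any 1 of 9 rats). Of 17 endothelial genes Pecam1 was called (0.28), of 21 heat shock genes Hspa12a (-0.34), at a locus joined to Eno4, and of 18 proliferation genes Tyms (-0.53). Of 9 hippocampal genes 3 were called (33.3%, against 8.3% of all loci), Trpc6 (0.79), Wfs1 (-0.90) and Prox1 (-0.40). These 6 genes each lost the call without the choroid-rich rats, and Pecam1, Hspa12a, Tyms and Prox1 without some single rats as well.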

How the data were processed

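Messenger RNA was measured in 24 libraries of 12 rats, each with perilesional cortex and ipsilateral thalamus (6 TBI, 6 sham-operated), grouped by their labels. The authors prepared stranded polyadenylated libraries, aligned them with TopHat2 2.0.11 and Bowtie2 2.2.2 and assembled loci with Cufflinks 2.2.1, per the submitters' processing notes. The deposited signal is the fragment count of a locus scaled with 1 factor per library. Low values were whole multiples of 1 step in each library, and 99.4% to 99.98% of values came out whole within 0.05, which gave 30568927 to 54608922 fragments per library and allowed a count test. The labels name Rnor_5.0, the paper names RGSC3.4 as genome, and the files state no build, so locus positions are given as listed. Promoters are from RefSeq, GRCr8.

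Values were log2-transformed with a pseudocount of 1. Unnamed loci (37.1%, holding 1.90% to 2.23% of normalized counts) were left out, and 15678 of 26641 named loci with a mean of at least 10 were tested with limma 3.58.1 in R 4.3.3 (mean trend, two-sided, Benjamini-Hochberg, 0.05), with the rat as a fixed block. Both regions came from the same rat, and within-group residuals of its cortex and thalamus libraries had a median correlation of 0.187 in the 12 rats (0.00393 to 0.569, 10 of them over 0.1). Alternatives were no block or a random block, other scalings, filters, pseudocounts and thresholds, limma-voom, each rat left out, and, added after seeing the data, edgeR 4.0.16 on recovered fragments, the split of directions under every scaling and 8 rats without choroid-rich libraries. A locus that joins several names counts for each, and the locus with the highest mean stands for a name. Folds are ratios of group means.

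The members and 60 gene lists were chosen with earlier results of these data known. Named genes were the 6 largest differences in each direction without overlap of within-rat differences, the 8 largest opposite-direction genes in each direction, and the called members of each list (the 3 largest where a list had 4 or more). Some of them are not reported here. Others are named to fill out a list's count, to show a marker, or for lack of overlap, and were chosen after their values were seen. On simulated data with 200 of 15678 loci changed, the test recovered 83% at a log2 difference of 1 and 63% at 0.6, with 7 calls at unchanged loci and 0 with nothing changed. The simulated libraries were drawn independently, with no shared rat effect, no injury effect common to the regions and no choroid-rich library. These rates therefore need not hold for the real libraries. Python 3.11.15 with pandas 2.3.3 handled the tables, and matplotlib 3.10.9 was used for plots.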

Additional observations from a re-analysis of the deposited data

Results flagged for a closer look

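The injury effect differed between the regions by the test of the difference itself at 1301 loci in all and ran in opposite directions at 66. On the log2 scale (thalamus minus cortex) the genes singled out by size were, above 0, BC027072 at 2.76, Pmch at 2.68, Cartpt at 2.57, Clec7a at 2.41, Dao at 1.92, Stac2 at 1.80, Cd200r1 at 1.63, Tnnc2 at 1.56, Mfi2 at 1.52, Hcrtr2 at 1.18, Cadps2 at 1.11 and Plekha2 at 1.03. Below 0 they were Scn7a at -4.75, Stoml3 at -4.74, Spata18 at -3.79, RGD1564899 at -3.75, Chst9 at -3.74, Gm17455 at -3.19, Cidea at -2.57, Nmb at -2.20, Tshr at -2.12, Tnc at -1.81, Adamts2 at -1.72, Adamts19 at -1.58 and Synpo2 at -1.46.

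In the within-rat differences (thalamus minus cortex, log2) of these 25 genes, 4 of 50 groups of 6 rats held 1 animal far from the others by Dixon's ratio, and chance flags about 5% of groups. Sham rat 34 had 6.55 for Gm17455 against 3.87 to 4.82 in the other shams. TBI rat 45 had -1.53 for Stac2 against -2.28 to -2.0, and -0.61 for Adamts19 against 0.43 to 0.95. Sham rat 32 had -0.60 for Hcrtr2 against 0.14 to 0.54. Sham rat 34 and TBI rat 45 are among the 4 rats with choroid-rich libraries.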

How the results depend on the processing

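Without the replicate block 1138 loci were region-dependent and with the rat as a random replicate block 1612, against 1301. This count did not move by over 1.5 times through the block. Opposite-direction loci were 66 in each case, but the region tests that define them have no block, so this says little about it. Without the block the count of called genes went from 7 to 4 in the ependymal and cilia list, from 5 to 1 in the cholesterol list and from 5 to 3 in the complement list. Without it, 20 of the 136 genes chosen by rule lost the call: Atp2b1, Bmp6, C3ar1, Col18a1, Csf3r, Dbp, F13a1, Fos, Gbp2, Glra1, Grin2b, Hcn4, Hgf, Hspa12a, Idi1, Insig1, Pecam1, Pou3f2, Prox1 and RT1-DOb. No other such gene did. Opposite-direction loci were 42 with no filter on low values against 66. Without the 4 choroid-rich rats the counts were 346 region-dependent and 21 opposite loci and 1481 cortical calls against 4574, with fewer samples by construction. At a threshold of 0.01 the counts were 445 and 19, and 486 loci passed when a difference of at least 1.5-fold was asked for. Leaving out each rat gave 759 to 1438 region-dependent loci, 42 to 64 opposite loci, 3698 to 5272 cortical and 4499 to 5419 thalamic calls. The count fell by over 1.5 times without sham rat 50 (759), sham rat 55 (840) and TBI rat 56 (831), and the cause was not tested. Scaling and the other filters, pseudocounts and models left the count between 993 and 1360. None of these 136 genes reversed in any alternative, and 70 of them kept the call in every one other than the stricter thresholds.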
